A study of Mus musculus with 8 samples.

Results

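The mitochondrial ribosomal protein genes analysed here are the 77 genes whose symbol starts with Mrpl or Mrps and a number, out of 19938 genes with a probe set annotated to a single symbol. The symbol alone chose them: 48 are Mrpl genes and 29 are Mrps genes, and a gene with several probe sets was represented by the one with the highest mean. RNA came from primary mouse MPNST, a malignant tumour of the peripheral nerve sheath, in the NPcis model. All groups share this genotype, in which mutant Nf1 lies in cis with a mutation of another tumour suppressor gene. The 8 arrays fall into 4 groups of 2, all at 14 hours: rapamycin, PD-0325901, the combination of both, and vehicle. Rapamycin, which inhibits mTORC1, was injected into the peritoneum at 5 mg/kg, and PD-0325901, which inhibits MEK, was given by mouth through a tube at 1.5 mg/kg, 2 times a day. By its title, the series looks for nodes of signalling, and markers of therapy, in cancers whose NF1 is mutated.

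The values are log2 intensities, 1 per probe set and array, and a difference of 1 is a doubling. The labels do not say whether the arrays of a group come from separate animals, so the p-values measure only the spread between these arrays, and 2 arrays against 2 cannot give an exact permutation p below 0.333. Precision is set by this small number of arrays. The tumours hold several cell types, and in such bulk RNA fewer cells of a type and less RNA per cell cannot be told apart. Of 12 Schwann cell markers 10 were measured, and their median level relative to each gene's mean lay between -0.07 and 0.18 on the 8 arrays. Single markers of the 10 differed more, from -1.02 to 1.31 for PD-0325901 against vehicle and from -0.89 to 0.48 for rapamycin against vehicle. For the combination they ran from -0.10 to 0.83 against vehicle and from -0.03 to 1.61 against rapamycin. Sox10, a defining factor of the lineage, was at 7.85 to 8.17, Ngfr at 8.38 to 8.68, Erbb3 at 7.25 to 7.56 and S100b at 7.12 to 7.32. Array medians over all probe sets were 7.79 to 7.90. Cdh19 had 5.66 on either rapamycin array, 6.98 and 7.02 with PD-0325901, 5.40 and 7.34 with the combination, and 5.44 and 5.94 with vehicle. The lowest value in the whole table is 3.36, so no marker is listed at 0, and a listed level does not alone show expression. Across genes, arrays of the same group correlated at 0.947 to 0.983 and arrays of different groups at 0.953 to 0.98.

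The mitochondrial ribosome translates the few proteins encoded by mitochondrial DNA, all of them core subunits of the respiratory chain and ATP synthase. Its RNA is made inside the organelle, while its proteins are encoded in the nucleus, made on cytosolic ribosomes and imported. Part of these proteins descend from bacterial ribosomal proteins and part are specific to mitochondria. Rapamycin acts on mTORC1, which is known to promote translation of nuclear mRNAs for mitochondrial proteins and to act with YY1 and PGC-1alpha on their transcription, and MEK acts through ERK, which stabilises MYC. A symbol does not always give the subunit: in human structures the products of MRPS18A and MRPS30 sit in the large subunit, and MRPS36 is a subunit of the 2-oxoglutarate dehydrogenase complex. Large and small below refer to the symbols.

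Promoters are shown for 4 members because these had the smallest p-values in the comparisons of all arrays with a drug against all without it. Each runs from 250 bases before to 50 bases after the RefSeq gene start, in build GRCm38.p6, and capitals mark a match, on either strand, to the core motifs of NRF1 (GCATGCGC), of ETS factors (CCGGAAGT) or of YY1 (AAGATGGC). Mrpl33 lies at chr5:31613701-31614000 on the plus strand, Mrps6 at chr16:92058086-92058385 on the plus strand, Mrpl46 at chr7:78783040-78783339 on the minus strand and Mrpl20 at chr4:155802628-155802927 on the plus strand. Mrps28 met the same rule and is named only.
Mrpl33: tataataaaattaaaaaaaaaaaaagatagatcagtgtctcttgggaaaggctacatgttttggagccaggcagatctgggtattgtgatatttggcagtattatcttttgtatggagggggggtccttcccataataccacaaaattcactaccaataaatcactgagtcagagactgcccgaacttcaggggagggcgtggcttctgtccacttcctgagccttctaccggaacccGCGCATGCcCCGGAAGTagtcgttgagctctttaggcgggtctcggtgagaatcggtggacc
Mrps6: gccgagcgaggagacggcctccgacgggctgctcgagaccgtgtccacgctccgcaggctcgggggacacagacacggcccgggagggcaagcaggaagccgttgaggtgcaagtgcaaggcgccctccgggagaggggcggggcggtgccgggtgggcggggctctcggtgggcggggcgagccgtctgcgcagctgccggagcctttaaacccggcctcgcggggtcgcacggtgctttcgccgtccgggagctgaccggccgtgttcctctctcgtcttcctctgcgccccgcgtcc
Mrpl46: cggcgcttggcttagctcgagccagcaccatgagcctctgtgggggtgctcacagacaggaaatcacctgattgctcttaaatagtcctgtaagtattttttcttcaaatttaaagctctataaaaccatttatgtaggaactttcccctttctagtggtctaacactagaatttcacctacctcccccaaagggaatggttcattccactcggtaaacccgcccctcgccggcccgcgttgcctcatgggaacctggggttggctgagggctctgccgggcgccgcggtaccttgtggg
Mrpl20: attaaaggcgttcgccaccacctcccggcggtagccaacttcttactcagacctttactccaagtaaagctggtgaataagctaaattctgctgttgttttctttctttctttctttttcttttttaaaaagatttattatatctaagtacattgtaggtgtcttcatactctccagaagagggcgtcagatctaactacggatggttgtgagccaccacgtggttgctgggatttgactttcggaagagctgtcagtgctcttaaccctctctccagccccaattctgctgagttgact
Mrpl33 carries an NRF1 core before its start and, beside it, an ETS core that runs across the start, and the letters of the 3 motifs are not in the other 3 windows. A match is a description and not a site.

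Promoter windows were found for 68 of the 77 members. The ETS core was in 12 of the 68 (17.6%), against 4.31% of the 27025 promoters in the RefSeq table and 6.01% of the 15614 genes on the array that have a promoter there. The YY1 core was in 12 (17.6%), against 3.19% of the table and 3.77% of genes on the array. The NRF1 core was in 8 (11.8%), against 3.05% of the table and 4.27% of genes on the array. The shorter ETS core CCGGAA, which the longer one contains, was in 39 (57.4%), against 16.7% and 22% of the same backgrounds. At least 1 of the 3 longer motifs was in 29 members (42.6%), against 9.91% of the table and 13.1% of genes on the array. Other families of housekeeping genes had shares near those of the members for some motifs. Of 49 cytosolic ribosomal protein genes 16.3% held the longer ETS core, 53.1% the shorter and 6.12% each the YY1 and the NRF1 core. Of 65 oxidative phosphorylation genes 7.69% held the longer ETS core, 40% the shorter, and 15.4% each the YY1 and the NRF1 core. The E-box CACGTG was in 7.35% of members, 8.09% of the table and 9.5% of genes on the array, and TATAAA in 7.35%, 15.7% and 13.6%. Members' windows had a median of 58.0% G and C, against 52.8% over the table, and the part of base composition in these shares was not tested.

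No member, and no gene of the 19938, passed an adjusted p of 0.05 in any comparison of the limma fit (Benjamini-Hochberg adjustment over all genes, background 0%), so what follows gives values. The members were lower on average in the groups that received rapamycin, alone or in the combination, while the duplicate arrays of the rapamycin group lay further apart than any groups did. Taking for each array the median over the 77 members of the log2 level minus the gene's own mean, the rapamycin arrays had -0.25 and 0.12. The PD-0325901 arrays had 0.14 and -0.09, the combination arrays 0.00 and -0.17, and the vehicle arrays 0.16 and 0.03. The pooled SD between duplicates was 0.17 and the range over the 8 arrays 0.42. The group means were -0.07 with rapamycin, 0.02 with PD-0325901, -0.08 with the combination and 0.10 with vehicle, so the groups differed by no more than about the spread between duplicates.

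**Figure D1:**
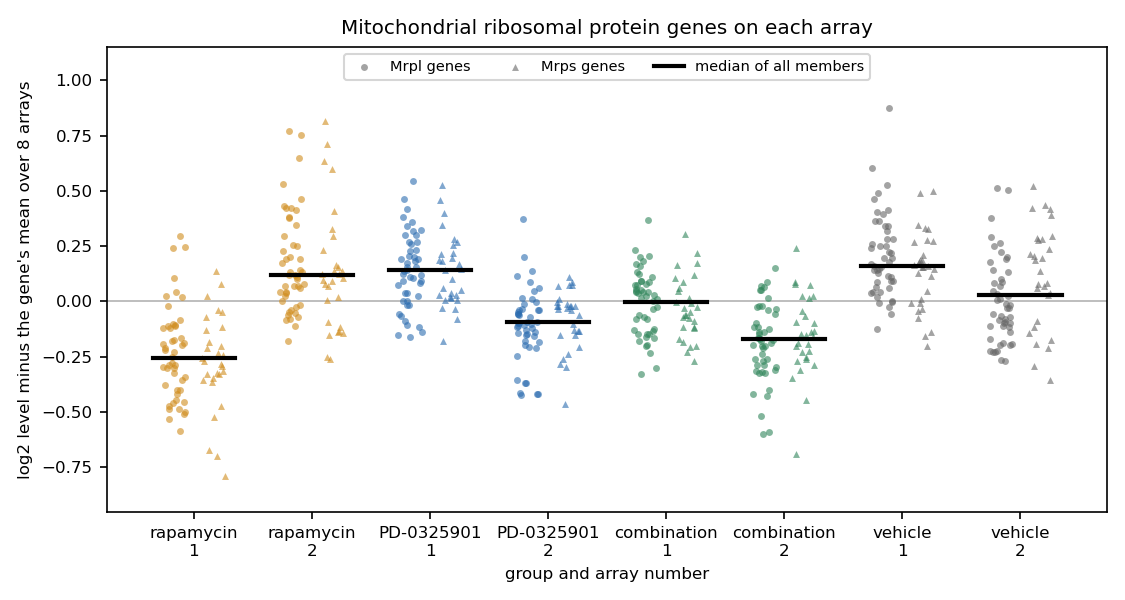
Each point is 1 of the 77 genes on 1 array, drawn as its log2 level minus its own mean over the 8 arrays (circles Mrpl genes, triangles Mrps genes), and the black bar is the median of all members. The bar is lowest on rapamycin array 1 (-0.25) and highest on vehicle array 1 (0.16), and the rapamycin duplicates lie on opposite sides of 0.

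Most members differed in the same direction between duplicates of the same treatment. Rapamycin array 1 was below rapamycin array 2 for 67 of the 77 members, with a median difference of -0.33, against 52% of all genes. PD-0325901 array 1 was below array 2 for 8 members, with a median difference of 0.22, against 44.8% of all genes. For the combination, array 1 was below array 2 for 16 members (median 0.11, all genes 53.8%), and for vehicle for 21 (median 0.18, all genes 46.7%). Of the 77 members 40 had their lowest level on rapamycin array 1 and 25 on combination array 2. Highest levels were spread over vehicle array 1 (21 members), rapamycin array 2 (19), PD-0325901 array 1 (19) and vehicle array 2 (12).

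Marker lists of proliferation and of other cell types differed between these arrays as well. All 11 measured proliferation markers of 12 were lower on rapamycin array 1 than on rapamycin array 2. Their median centred level was -0.59 and 0.42 on the rapamycin arrays, 0.13 and -0.23 with PD-0325901, 0.02 and -0.28 with the combination, and 0.35 and 0.31 with vehicle. All 7 adipocyte markers were measured, and the same score was 1.73 and -0.25 with rapamycin, -0.32 and -0.18 with PD-0325901, -0.05 and -0.29 with the combination, and -0.23 on either vehicle array. All 8 skeletal muscle markers were measured, at -0.68 and 1.66 with rapamycin, -0.34 and -0.26 with PD-0325901, -0.45 and 0.78 with the combination, and 0.24 and -0.72 with vehicle. Rapamycin array 1 thus stood apart by adipocyte and proliferation markers, and rapamycin array 2 by skeletal muscle markers. The 9 fibroblast markers also differed between duplicates, at 0.56 and -0.63 with rapamycin and -0.71 and 0.32 with vehicle. With PD-0325901 they were at 0.25 and 0.00, and with the combination at 0.12 and 0.29. The 7 endothelial markers were at 0.70 and 0.20 with rapamycin and 0.22 and -0.08 with vehicle. With PD-0325901 they were at -0.47 and 0.04, and with the combination at -0.45 and -0.28. Of 6 erythroid markers 3 were measured, and PD-0325901 array 2 was at 2.18 against -0.29 on PD-0325901 array 1. The part of these cell types in the members' levels was not tested.

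**Figure D2:**
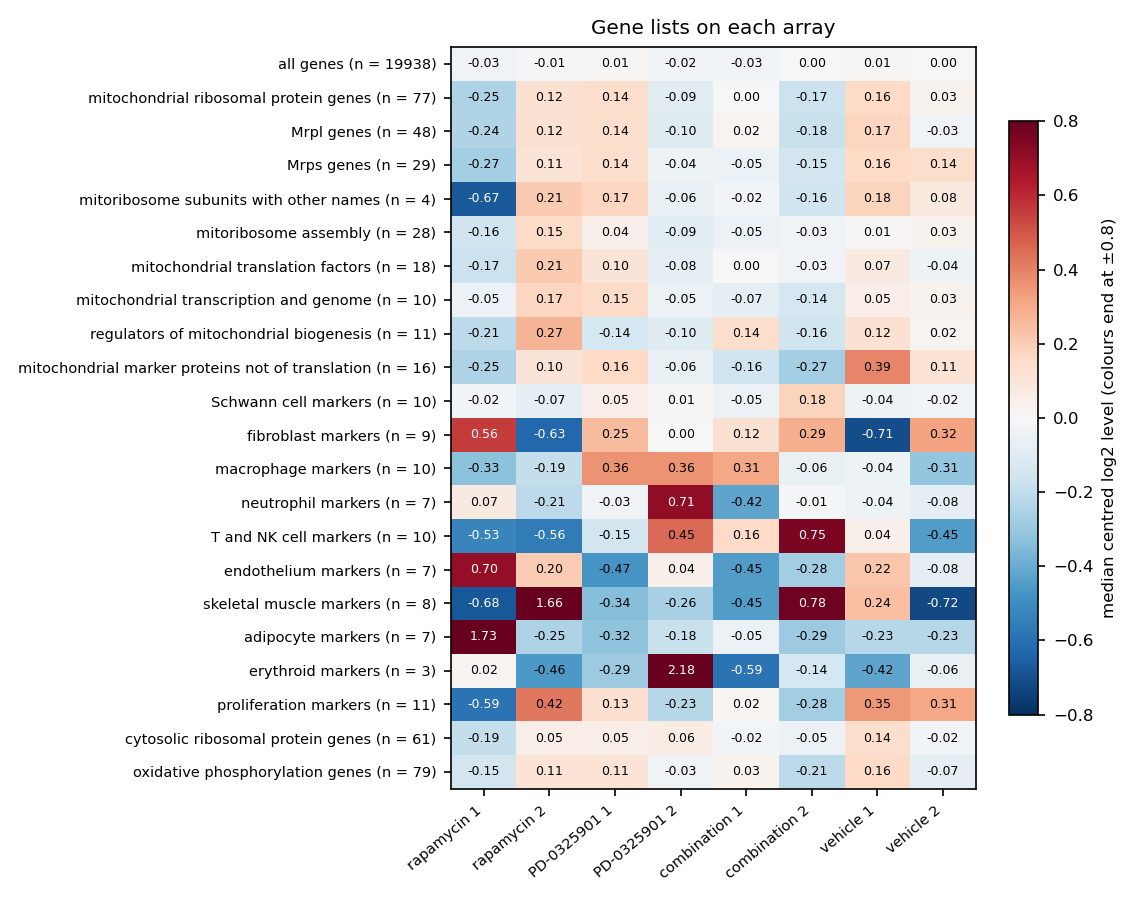
Each cell gives, for a gene list (rows, with the number of genes measured) on an array (columns, grouped by treatment), the median over the list of the log2 level minus each gene's mean over the 8 arrays. Rapamycin array 1 is low for the mitochondrial lists and for proliferation (-0.59) and high for adipocyte markers (1.73).

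Rapamycin was set against vehicle to ask which members differ with the mTORC1 inhibitor alone. The median difference of the members was -0.16, against -0.02 over all genes, and 62 of 77 members were below 0, against 54.1% of all genes. Both rapamycin arrays lay below both vehicle arrays for 20 members (background 17.9%) and above both for 1 (background 12.5%). At an unadjusted p under 0.05 limma gave 4 lower members (background 2.15%) and 1 higher (background 2.77%). Without rapamycin array 1 the median was 0.02, with 42 members above 0, and without rapamycin array 2 it was -0.35. Without vehicle array 1 the median was -0.09, with 30 members above 0. The counts at an unadjusted p under 0.05, in either direction, moved when single arrays were left out, in the members and over all genes.

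The 4 lower members were Mrpl50, Mrps16, Mrps6 and Mrps15. Mrpl50, a protein of the large subunit specific to mitochondria, had 8.50 and 9.03 with rapamycin, against 9.36 and 9.41 with vehicle, a difference of -0.63 (SE 0.18, limma adjusted p = 0.9638). Mrps16, a relative of bacterial ribosomal protein S16, had 9.23 and 9.42 with rapamycin, against 9.67 and 9.65 with vehicle, a difference of -0.33 (SE 0.10). For either gene both rapamycin arrays were below both vehicle arrays. Mrps15, a relative of bacterial S15, had 10.15 and 10.55 with rapamycin, against 10.76 on either vehicle array, a difference of -0.41 (SE 0.16). Mrpl46, a large subunit protein specific to mitochondria, was next with -0.29 (SE 0.12).

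Mrpl4, a relative of bacterial L4, which lines the exit tunnel of the ribosome, was the member higher with rapamycin. It had 10.20 and 10.21 with rapamycin, against 9.90 and 9.76 with vehicle, a difference of 0.37 (SE 0.11, limma adjusted p = 0.9638). Its levels were 9.84 and 9.86 with PD-0325901 and 10.03 and 9.84 with the combination, so the rapamycin arrays were above all others. The next 4 above 0 were Mrpl30 (0.19, SE 0.16), Mrpl3 (0.31, SE 0.29), Mrps36 (0.17, SE 0.37) and Mrpl11 (0.13, SE 0.34), all with overlapping arrays. In 3 of these 4 (Mrpl3, Mrps36 and Mrpl11) rapamycin array 2 was the highest of the 8 arrays.

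PD-0325901 against vehicle asks the same of the MEK inhibitor alone. The median difference of the members was -0.05, against -0.02 over all genes, and 46 of 77 were below 0, against 53.8% of all genes. Both PD-0325901 arrays lay below both vehicle arrays for 21 members (background 20.9%) and above both for 2 (background 17.6%). The 1 member with an unadjusted p under 0.05 was lower (background 2.38%), and none was higher (background 3.47%). These counts moved when single arrays were left out, in the members and over all genes. Leaving out each array, the median ran from -0.16 (without PD-0325901 array 1) to 0.01 (without PD-0325901 array 2).

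Mrpl50 was that member, with 8.84 and 8.72 with PD-0325901, against 9.36 and 9.41 with vehicle, a difference of -0.61 (SE 0.18, limma adjusted p = 0.6975). Behind it came Mrpl15 (-0.30, SE 0.14), Mrpl33 (-0.23, SE 0.11), Mrps6 (-0.38, SE 0.20) and Mrps9 (-0.24, SE 0.13), and in all 4 the arrays did not overlap. Above 0 the smallest p-values were those of Mrpl23 (0.44, SE 0.27), Mrpl24 (0.18, SE 0.15), Mrps34 (0.12, SE 0.12), Mrpl28 (0.15, SE 0.17) and Mrpl27 (0.14, SE 0.17). Mrpl23, a relative of bacterial L23 at the exit of the tunnel, and Mrpl28 had both PD-0325901 arrays above both vehicle arrays.

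The combination against vehicle, which asks the same of both drugs given together, had a median of -0.19, against -0.02 over all genes. Of the 77 members 61 were below 0, against 53.7% of all genes. Both combination arrays lay below both vehicle arrays for 35 members (background 22.3%) and above both for 1, Mrpl24 (background 17.9%). At an unadjusted p under 0.05 limma gave 12 lower members, or 15.6% (background 4%), and none higher (background 5.08%). Leaving out each array in turn, the median ran from -0.28 (without combination array 1) to -0.10 (without vehicle array 1, with 28 members above 0). Without combination array 2 the median was -0.11, with 26 members above 0. The count of 12 lower members moved when single arrays were left out, as did the count over all genes.

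Mrps6, a relative of bacterial S6 in the small subunit, had the smallest p. Its levels were 10.76 and 10.36 with rapamycin, 10.81 and 10.60 with PD-0325901, 10.35 and 9.93 with the combination, and 11.12 and 11.04 with vehicle. The combination differed from vehicle by -0.94 (SE 0.20, limma adjusted p = 0.3588), and all 6 arrays with a drug were below both vehicle arrays. Mrps6 overlaps Slc5a3, a myo-inositol transporter gene, which had a difference of -0.49 in the same comparison. A probe set of Mrps6 may read transcripts of either gene, which was not tested.

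Mrpl50 had 8.72 and 8.61 with the combination, against 9.36 and 9.41 with vehicle, a difference of -0.72 (SE 0.18, limma adjusted p = 0.4039). Mrpl33, a relative of bacterial L33, had 8.64 and 8.77 with the combination, against 9.11 and 9.15 with vehicle, a difference of -0.42 (SE 0.11). Mrpl48, specific to mitochondria, had 8.86 and 8.47 with the combination, against 9.31 and 9.13 with vehicle, a difference of -0.55 (SE 0.18). Mrps15 had a difference of -0.46 (SE 0.16). In all 4 the combination arrays were below both vehicle arrays. The members above 0 with the smallest p-values were Mrpl24 (0.19, SE 0.15), Mrpl4 (0.10, SE 0.11), Mrpl34 (0.14, SE 0.28), Mrpl30 (0.08, SE 0.16) and Mrps30 (0.17, SE 0.40).

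All 6 arrays with a drug lay below both vehicle arrays for 8 of the 77 members, against 5.20% of all genes, and above both for none, against 4.04% of all genes. The 8 were Mrpl15, Mrpl16, Mrpl39, Mrpl50, Mrps5, Mrps6, Mrps15 and Mrps16. This count and all comparisons with vehicle rest on the same vehicle arrays. Mrpl50 had its 3 drug groups at close levels, while Mrps6 was lowest with the combination.

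**Figure D3:**
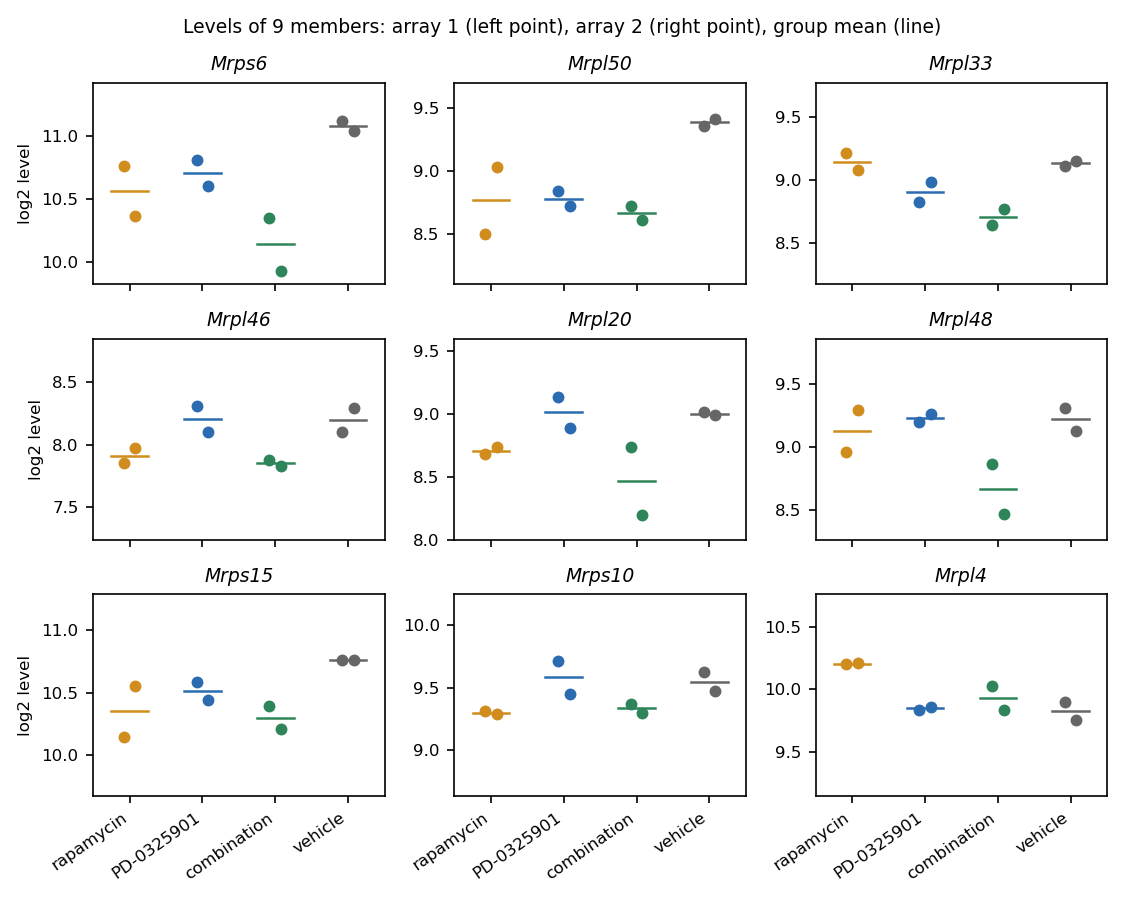
Log2 levels (vertical axis) of 9 members in the 4 groups, with array 1 as the left point, array 2 as the right point and the group mean as a line; each panel spans the same range. Mrps6 and Mrpl50 have all 6 drug arrays below both vehicle arrays, Mrpl46, Mrpl20 and Mrps10 have all 4 arrays with rapamycin below the 4 without it, and Mrpl4 is highest with rapamycin alone.

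The combination was also set against each drug. Against PD-0325901, which asks what rapamycin adds, the median difference of the members was -0.09 (all genes -0.01), with 56 of 77 below 0, against 52.1% of all genes. Both combination arrays lay below both PD-0325901 arrays for 25 members (background 18.2%) and above both for 4 (background 16.3%). At an unadjusted p under 0.05 limma gave 5 lower members and none higher (background 1.27% lower and 1.74% higher). Mrpl48 differed by -0.56 (SE 0.18), Mrpl20 by -0.55 (SE 0.19) and Mrpl46 by -0.35 (SE 0.12), all with a limma adjusted p of 0.9998. Without PD-0325901 array 1 the median was 0.01, and the counts at an unadjusted p under 0.05 moved when single arrays were left out. Above 0 the smallest p-values were those of Mrps9 (0.14, SE 0.13), Mrpl34 (0.26, SE 0.28) and Mrpl32 (0.37, SE 0.41).

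Against rapamycin, which asks what PD-0325901 adds, the median difference was -0.04 (all genes -0.01), with 47 of 77 below 0, against 51.7% of all genes. Both combination arrays lay below both rapamycin arrays for 11 members (background 15.1%) and above both for 4 (background 16%). The 3 members lower at an unadjusted p under 0.05 (background 2.71%) were Mrpl33 (-0.44, SE 0.11, limma adjusted p = 0.5814), Mrpl48 (-0.46, SE 0.18) and Mrpl4 (-0.27, SE 0.11), and none was higher (background 3.95%). These counts moved when single arrays were left out, in the members and over all genes. Without rapamycin array 1, 14 of the 77 members were above 0, and without rapamycin array 2, 57 were. Mrps16 (0.23, SE 0.10), Mrps31 (0.42, SE 0.21) and Mrpl45 (0.30, SE 0.24) led above 0. The median was -0.23 without rapamycin array 1 and 0.18 without rapamycin array 2, and without combination array 2 it was 0.03, so its direction rests on single arrays.

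**Figure D4:**
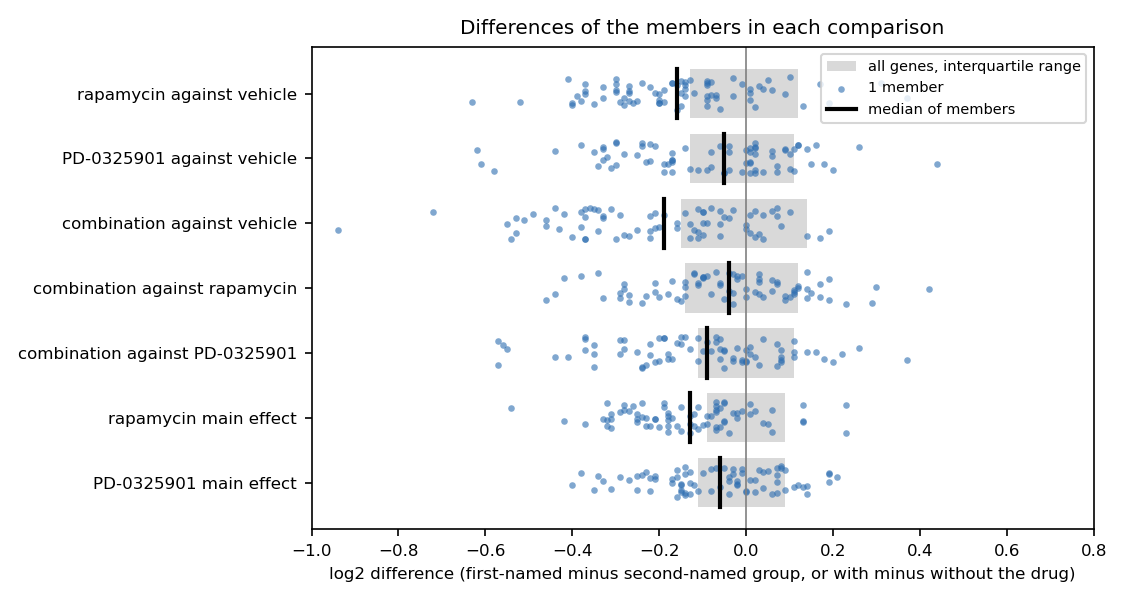
Log2 differences (horizontal axis) of the 77 members in 7 comparisons (rows), 1 point per gene, with the median as a black bar and the interquartile range of all 19938 genes in grey. The bar lies at -0.19 for the combination against vehicle, -0.16 for rapamycin against vehicle and -0.04 for the combination against rapamycin.

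Rapamycin against vehicle and the combination against PD-0325901 share no arrays and both measure rapamycin. In both, 48 of the 77 members (62.3%) were lower, against 32% of all genes. In both, 7 (9.09%) were higher, against 25.7% of all genes. Leaving out each array in turn, the count of members lower in both ran from 30 (without rapamycin array 1) to 55 (without rapamycin array 2 or PD-0325901 array 2). It was 33 with PD-0325901 array 1 left out, and 36 with either vehicle array 1 or combination array 2 left out. For PD-0325901 the pair that shares no arrays is PD-0325901 against vehicle and the combination against rapamycin. There 32 members (41.6%) were lower in both, against 32.8% of all genes, and 16 (20.8%) higher in both, against 27.3% of all genes. The count of members lower in both ran from 14 (without rapamycin array 2) to 42 (without PD-0325901 array 1), with 20 without combination array 2.

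Averaged over the presence and absence of PD-0325901, the rapamycin effect had a median of -0.13 over the members (all genes -0.01), with 65 of 77 below 0, against 53.8% of all genes. At an unadjusted p under 0.05 limma gave 8 lower members, or 10.4% (background 2.40%), and 1 higher (background 3.15%). All 4 arrays with rapamycin lay below all 4 without it for 3 members (background 1.94%) and above for none (background 1.41%). The median was -0.06 without rapamycin array 1 and -0.24 without rapamycin array 2. Without rapamycin array 1, 33 of the 77 members were above 0. Without PD-0325901 array 1 the median was -0.07, with 23 members above 0. The counts at an unadjusted p under 0.05 also moved when single arrays were left out, as they did over all genes. The 3 members apart were Mrpl46, Mrpl20 and Mrps10.

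Mrpl46 had 7.85 and 7.97 with rapamycin and 7.88 and 7.83 with the combination, against 8.31 and 8.10 with PD-0325901 and 8.10 and 8.29 with vehicle. Its rapamycin effect was -0.32 (SE 0.09, limma adjusted p = 0.7561), and leaving out each array gave -0.38 to -0.27. Mrpl20, a relative of bacterial L20, had 8.68 and 8.74 with rapamycin and 8.74 and 8.20 with the combination, against 9.14 and 8.89 with PD-0325901 and 9.02 and 8.99 with vehicle. Its effect was -0.42 (SE 0.14, limma adjusted p = 0.8280). Mrps10, a relative of bacterial S10, had 9.31 and 9.29 with rapamycin and 9.37 and 9.30 with the combination, against 9.71 and 9.45 with PD-0325901 and 9.62 and 9.47 with vehicle. Its effect was -0.25 (SE 0.09).

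Mrps6 had the smallest p of the members for rapamycin, with an effect of -0.54 (SE 0.14, limma adjusted p = 0.7523), though 1 or more of its arrays with rapamycin lay above an array without it. Mrpl50 had -0.37 (SE 0.13) and Mrps15 -0.31 (SE 0.11). Mrpl4 was the member above 0 at an unadjusted p under 0.05, with 0.23 (SE 0.08, limma adjusted p = 0.8519). Mrpl30 (0.13, SE 0.11), Mrpl32 (0.23, SE 0.29), Mrpl3 (0.13, SE 0.20), Mrpl36 (0.13, SE 0.27) and Mrpl34 (0.06, SE 0.20) followed, each within about 1 SE of 0.

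The PD-0325901 effect, averaged in the same way, had a median of -0.06 over the members (all genes -0.01), with 52 of 77 below 0, against 54% of all genes. Limma gave 5 lower members at an unadjusted p under 0.05, or 6.49% (background 4.14%), and none higher (background 5.47%). All 4 arrays with PD-0325901 lay below all 4 without it for 2 members (background 2.39%), Mrpl33 and Mrps28, and above for none (background 3.34%). The median was 0.05 without rapamycin array 2, so its direction rests on that array. Without rapamycin array 2, 49 of the 77 members were above 0. The counts at an unadjusted p under 0.05 also moved when single arrays were left out, as they did over all genes. In the same comparison all 10 macrophage markers (median 0.39) and all 10 T and NK cell markers (median 0.60) were above 0 and all 7 endothelial markers (median -0.51) below 0, and their part in the members' values was not tested.

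Mrpl33 had 8.82 and 8.98 with PD-0325901 and 8.64 and 8.77 with the combination, against 9.21 and 9.08 with rapamycin and 9.11 and 9.15 with vehicle. Its PD-0325901 effect was -0.34 (SE 0.08, limma adjusted p = 0.2735), and leaving out each array gave -0.38 to -0.30. Its levels with rapamycin alone were within those of its vehicle arrays or close to them. Mrps28, which in human structures takes the place of bacterial S1, had 8.96 and 8.86 with PD-0325901 and 8.76 and 8.70 with the combination, against 9.01 and 9.22 with rapamycin and 8.98 and 9.41 with vehicle. Its effect was -0.33 (SE 0.12, limma adjusted p = 0.4559). Mrps6 (-0.40, SE 0.14), Mrpl50 (-0.35, SE 0.13) and Mrpl15 (-0.25, SE 0.10) were the other 3 lower members, and Mrpl40 (-0.22, SE 0.12) came next. Above 0 stood Mrpl24 (0.19, SE 0.11), Mrps31 (0.21, SE 0.15), Mrpl27 (0.14, SE 0.12), Mrpl45 (0.19, SE 0.17), Mrps7 (0.19, SE 0.18) and Mrpl28 (0.11, SE 0.12).

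The interaction of the drugs, which asks whether an effect of a drug differs in the presence of the other, had a median of 0.04 over the members, with 46 of 77 above 0, against 51.8% of all genes. Mrps16 was the 1 member with an unadjusted p under 0.05 (background 1.03% higher and 1.14% lower), with 0.37 (SE 0.15, limma adjusted p = 0.9999). Mrpl50 (0.52, SE 0.26), Mrps9 (0.36, SE 0.19), Mrpl4 (-0.29, SE 0.16), Mrpl48 (-0.47, SE 0.25) and Mrpl23 (-0.62, SE 0.39) came next. The median was -0.14 without rapamycin array 1, with 22 members above 0, and 0.19 without rapamycin array 2, with 58 above 0. The count at an unadjusted p under 0.05 moved when single arrays were left out, in the members and over all genes.

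Mrpl and Mrps genes had similar medians. Against vehicle, rapamycin gave -0.14 for the 48 Mrpl genes and -0.19 for the 29 Mrps genes, with 36 and 26 of them below 0. The combination against vehicle gave -0.17 for Mrpl and -0.21 for Mrps genes. The rapamycin effect was -0.12 for Mrpl and -0.16 for Mrps genes, and the PD-0325901 effect -0.08 for Mrpl and -0.04 for Mrps genes. The difference between the subunits was not tested. The vehicle duplicates differed by a median of 0.22 for Mrpl and 0.02 for Mrps genes.

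**Figure D5:**
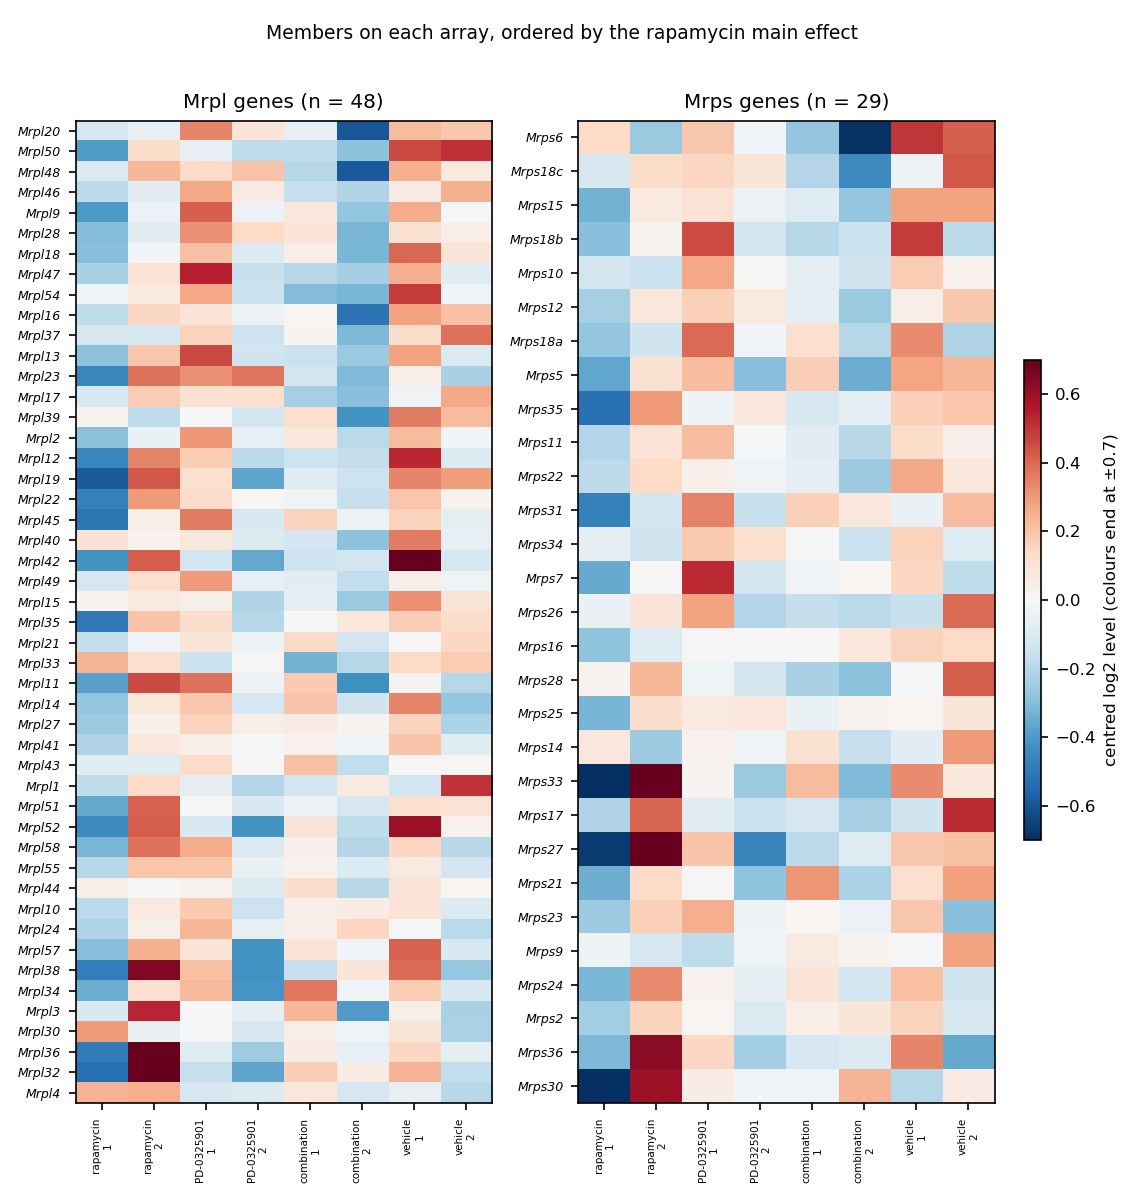
Colour gives the log2 level minus the gene's mean over the 8 arrays (colours end at ±0.7) for the 48 Mrpl genes and the 29 Mrps genes (rows) on each array (columns), ordered from the lowest to the highest rapamycin effect. The column of rapamycin array 1 is mostly blue, and the widest swings between rapamycin array 1 and rapamycin array 2 are those of Mrps33 (range 1.50), Mrps27 (1.49), Mrps30 and Mrpl32 (1.30 each).

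Members differed in how far they ranged over the 8 arrays. Mrps33 had the widest range, with 8.92 and 10.42 with rapamycin, 9.73 and 9.45 with PD-0325901, 9.93 and 9.40 with the combination, and 10.04 and 9.78 with vehicle. Mrps27, which carries repeats that bind RNA, had 7.70 and 9.19 with rapamycin, 8.57 and 7.91 with PD-0325901, 8.19 and 8.28 with the combination, and 8.56 and 8.58 with vehicle. In both the rapamycin duplicates held the lowest and the highest value of all arrays. The narrowest ranges were those of Mrpl21 (0.32), Mrpl44 (0.32) and Mrps34 (0.33).

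Members with a known role beyond a structural place were followed by name. Mrpl12, a stalk protein that also binds the mitochondrial RNA polymerase, had 9.38 and 10.18 with rapamycin, 10.01 and 9.65 with PD-0325901, 9.69 and 9.67 with the combination, and 10.36 and 9.74 with vehicle. The combination arrays were below both vehicle arrays, with a difference of -0.37 (SE 0.32). Mrps12, a relative of bacterial S12 at the decoding centre, had 7.68 and 7.48 with the combination, against 7.79 and 7.93 with vehicle, a difference of -0.28 (SE 0.14). Mrps22 and Mrps34, whose human counterparts are disease genes of mitochondrial translation, differed from vehicle by -0.33 (SE 0.15) and -0.11 (SE 0.12) in the combination. Mrps35 differed by -0.27 (SE 0.25) in the same comparison and Mrps7, a relative of bacterial S7, by 0.01 (SE 0.25).

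Mrpl58, a peptidyl-tRNA hydrolase that became part of the large subunit, had rapamycin and PD-0325901 effects of -0.05 and 0.00 (SE 0.19 each). Mrpl41 had -0.07 and 0.01 (SE 0.10 each) for the same effects. Mrpl3, a relative of bacterial L3, had 0.13 and -0.12 (SE 0.20 each), and Mrpl11, of the stalk base, -0.08 and 0.05 (SE 0.24 each). Mrps30 had 0.06 and 0.12 (SE 0.28 each) and Mrps36 0.05 and -0.15 (SE 0.26 each). None of these 6 stood further than about 1 SE from 0.

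The paralogues Mrps18a, Mrps18b and Mrps18c all descend from bacterial S18. Their rapamycin effects were -0.24 (SE 0.17), -0.31 (SE 0.20) and -0.32 (SE 0.13), and their PD-0325901 effects 0.14 (SE 0.17), -0.01 (SE 0.20) and -0.21 (SE 0.13). Mrps18c had 9.38 and 9.14 with the combination, against 9.55 and 10.02 with vehicle, a difference of -0.53 (SE 0.19), and its combination arrays did not overlap those of any other group. The combination arrays of Mrps18a (9.96 and 9.64) and Mrps18b (9.75 and 9.80) overlapped those of vehicle (10.17 and 9.63 for Mrps18a, 10.44 and 9.76 for Mrps18b).

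Of 5 mitoribosome subunits with other symbols 4 were measured. Their median rapamycin effect was -0.24, with 3 of 4 below 0. Chchd1 had 8.06 and 8.71 with rapamycin and 8.65 and 8.59 with the combination, against 8.94 and 8.77 with PD-0325901 and 9.09 and 8.86 with vehicle. Its rapamycin effect was -0.41 (SE 0.16), and all 4 arrays with rapamycin were below the 4 without it. Ptcd3, a pentatricopeptide protein of the small subunit, had -0.34 (SE 0.23), Dap3, a GTP-binding subunit, -0.15 (SE 0.15) and Gadd45gip1 0.14 (SE 0.33).

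The factors that assemble the ribosome and run translation had medians near 0. Among 28 assembly factors the median rapamycin effect was 0.00 with 15 below 0, and among 18 measured of 20 translation factors it was -0.01 with 9 below 0. Within them Yars2, the mitochondrial tyrosyl-tRNA synthetase that was listed with assembly, had -0.45 (SE 0.15). Lrpprc, which stabilises mitochondrial mRNAs, had -0.48 (SE 0.15), and Tufm, the mitochondrial elongation factor Tu, -0.42 (SE 0.16). Of the assembly factors, 1 was lower for rapamycin and none higher at an unadjusted p under 0.05, and of the translation factors 2 were lower and none higher (background 2.40% lower and 3.15% higher). For PD-0325901 Yars2 had -0.46 (SE 0.15) and Trub2, a pseudouridine synthase, 0.24 (SE 0.08). The difference between these lists and the members was not tested.

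Mitochondrial proteins that do not serve translation were lower with rapamycin in 16 of 16 measured genes of 18, against 53.8% of all genes. Their median effect was -0.24 (all genes -0.01), and 5 were lower at an unadjusted p under 0.05 (background 2.40%). In 15 of the 16, rapamycin array 1 was below rapamycin array 2, with a median difference of -0.37, against 52% of all genes. Their median centred levels were -0.25 and 0.10 with rapamycin and 0.16 and -0.06 with PD-0325901. They were -0.16 and -0.27 with the combination and 0.39 and 0.11 with vehicle. Tomm40, the pore of the outer membrane translocase, had -0.48 (SE 0.10). Hspd1, the matrix chaperonin, had -0.47 (SE 0.11) for rapamycin and -0.50 (SE 0.11) for PD-0325901. Its partner Hspe1 had 10.65 and 10.52 with PD-0325901 and 10.56 and 10.55 with the combination, against 10.67 and 10.78 with rapamycin and 11.26 and 11.30 with vehicle. The PD-0325901 effect of Hspe1 was -0.43 (SE 0.07, limma adjusted p = 0.1574), and all 4 arrays with the drug were below the 4 without it.

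The 61 cytosolic ribosomal protein genes had a median rapamycin effect of -0.11 with 55 below 0, and the 79 oxidative phosphorylation genes -0.12 with 60 below 0, against -0.13 with 65 of 77 below 0 for the members. Of all genes, 53.8% were below 0. For PD-0325901 the medians were 0.03 for cytosolic ribosomal protein genes, -0.05 for oxidative phosphorylation genes and -0.06 for the members. The 3 gene families thus had like medians for rapamycin, and their rapamycin duplicates also differed alike. Rapamycin array 1 was below rapamycin array 2 for 83.6% of cytosolic ribosomal protein genes and 79.7% of oxidative phosphorylation genes. The share was 87.0% for the members, against 52% of all genes. The median differences between these arrays were -0.23, -0.27 and -0.33 in the same order. The 11 proliferation markers had a median of -0.37 for rapamycin and -0.29 for PD-0325901, with all 11 below 0 in either, and their part in the members' differences was not tested.

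Among 11 measured regulators of mitochondrial biogenesis of 12, Ppargc1a, which encodes the coactivator PGC-1alpha, had 7.82 and 8.55 with rapamycin and 7.80 and 7.47 with the combination, against 7.05 and 7.04 with PD-0325901 and 6.87 and 6.71 with vehicle. All 4 arrays with rapamycin were above the 4 without it, and the rapamycin effect was 0.99 (SE 0.18, limma adjusted p = 0.7523), with 0.81 to 1.18 when each array was left out. Ppargc1a is also known from muscle and brown fat, and the skeletal muscle score was highest on rapamycin array 2 (1.66), the array with the highest Ppargc1a level. On the other arrays with rapamycin, the muscle score was -0.68, -0.45 and 0.78. The adipocyte score was 1.73 and -0.25 with rapamycin and -0.05 and -0.29 with the combination. The median rapamycin effect was 0.57 over the muscle markers, with all 8 above 0, and 0.48 over the adipocyte markers, with 6 of 7 above 0, and their part in the Ppargc1a values was not tested. The related coactivator gene Pprc1 had 8.60 and 8.99 with rapamycin and 8.99 and 8.93 with the combination, against 9.10 and 9.15 with PD-0325901 and 9.33 and 9.63 with vehicle. Its rapamycin effect was -0.42 (SE 0.12, limma adjusted p = 0.7561), and all 4 arrays with rapamycin were below the 4 without it.

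Ppargc1b, the third coactivator of this family, had a rapamycin effect of -0.29 (SE 0.19). The transcription factors whose motifs were searched showed smaller values, with rapamycin effects of 0.05 (SE 0.15) for Nrf1, -0.09 (SE 0.16) for Gabpa and 0.01 (SE 0.14) for Yy1. For PD-0325901 the smallest p-values of this list were those of Gabpa (-0.38, SE 0.16), Myc (-0.43, SE 0.19) and Yy1 (-0.26, SE 0.14). Of 10 measured genes of mitochondrial transcription and genome upkeep out of 12, Tfam, which packages mitochondrial DNA, had a PD-0325901 effect of -0.32 (SE 0.10), Tfb2m, a transcription initiation factor, -0.49 (SE 0.15), and Polg2, a DNA polymerase subunit, 0.26 (SE 0.08). For rapamycin Top1mt, the mitochondrial topoisomerase, led that list with -0.34 (SE 0.13).

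Members were also split by the motifs in their promoters. The 8 with the NRF1 core had a median rapamycin effect of -0.20, against -0.12 for the 60 without it, and a median PD-0325901 effect of -0.08, against -0.04. The 12 with the ETS core had a median PD-0325901 effect of -0.15, against -0.02 for the 56 without it, and a median rapamycin effect of -0.08, against -0.13. For YY1 the rapamycin medians were -0.13 for the 12 with the core and -0.12 for the 56 without it, and the PD-0325901 medians -0.04 for both. These differences were not tested.

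A start on the opposite strand within 1000 bases upstream, as in a shared promoter, was found for 26 of the 68 members with a promoter (38.2%), against 12.2% of the 27025 genes in the table. Of the partner genes, 24 were measured, and 14 of them were below 0 for rapamycin, against 53.8% of all genes. Their median rounds to 0.00 for rapamycin and was 0.04 for PD-0325901. The 24 include the members Mrpl46 and Mrps11, which are partners of each other, with starts 42 bases apart that point away from each other. Mrps11 had 9.25 and 9.55 with rapamycin and 9.38 and 9.26 with the combination, against 9.67 and 9.44 with PD-0325901 and 9.58 and 9.49 with vehicle. Its rapamycin effect was -0.19, beside -0.32 for Mrpl46. The partner of Mrpl50 is Zfp189, with starts 93 bases apart, and Zfp189 had a rapamycin effect of 0.06 and a PD-0325901 effect of -0.03, beside -0.37 and -0.35 for Mrpl50.

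Some probe sets are less certain than others. Of the 77 members 8 had 2 probe sets, and the levels of the 2 correlated over the 8 arrays at 0.48 for Mrpl41, 0.70 for Mrpl51, 0.77 for Mrpl27 and 0.86 or more for Mrpl23, Mrpl47, Mrps5, Mrps33 and Mrps36. For Mrpl27 the probe set used had a mean of 9.66 and the other 7.10. RefSeq lists processed copies of Mrpl23, Mrpl27, Mrpl48 and Mrps36, whose RNA the probe sets may also read, so values of these genes are uncertain. Besides Mrps6, named members that overlap another gene include Mrpl48 with Rab6a (combination against vehicle -0.39), Mrpl24 with Rrnad1 (0.22) and Mrps7 with Mif4gd (0.86). Of the 77 members 19 overlap another protein-coding gene, and the part of the overlapping genes in the probe sets was not tested.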

How the data were processed

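RNA of 8 arrays (4 groups of 2) was analysed. The deposited values are log2 intensities per probe set and array. The scale was read from the values, which run from 3.36 to 14.36, above the natural logarithm of a 16-bit maximum (11.09) and below its log2 (16). Neither their software nor their normalization is given in the sources used here. Per the labels' protocols, RNA was extracted with Trizol and RNeasy and amplified with the Nugen Applause kit. Array medians were 7.79 to 7.90.

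Of 35512 probe sets (1 empty), 21789 have a single symbol, 1621 have several and the others none. The probe set with the highest mean represented each of 19938 genes (999 genes had several), without a filter. The rule matched 85 probe sets of 77 members, and Mrpl53, present only on a shared probe set, was left out. All 77 symbols matched RefSeq. A model of 4 group means was fitted in limma 3.58.1 (R 4.3.3), two-sided, with 4 residual and 1.98 prior degrees of freedom, and Benjamini-Hochberg adjustment over all genes at 0.05. An effect of a drug is the mean of its differences without and with the other drug. A list is described by counts and its median. The procedure was tested on simulated data.

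Named members are the 5 with the smallest p in each direction against vehicle, 6 for the drug effects, 3 for other comparisons, the 3 widest and 3 narrowest ranges, a fixed set of known roles, and up to 3 per other list and drug effect. Nrf1, Ppargc1b, Dap3, Gadd45gip1, Mrps11, Zfp189 and the 8 members below vehicle in all drug arrays are named beside them. The members, lists and tests were chosen with earlier results of these data known. The alternatives were quantile normalization, median centring, genes above the median level, a robust prior with a variance trend, averaging a gene's probe sets, a replicate block by array number, a threshold of 0.1, a fit of 2 groups and leaving out each array. The array number does not pair the arrays: deviations of arrays with the same number correlated at -0.28 to 0.18.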

Additional observations from a re-analysis of the deposited data

Results flagged for a closer look

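Mrps16 and Mrps9 are named here because the arrays of a drug lay on opposite sides of their comparison group depending on the other drug. For Mrps16 both PD-0325901 arrays (9.52 and 9.51) were below both vehicle arrays (9.67 and 9.65), while both combination arrays (9.51 and 9.59) were above both rapamycin arrays (9.23 and 9.42). The interaction was 0.37 (SE 0.15, limma adjusted p = 0.9999). For Mrps9 the same held for either drug: both PD-0325901 arrays (8.24 and 8.39) and both rapamycin arrays (8.38 and 8.30) were below both vehicle arrays (8.41 and 8.70), while both combination arrays (8.48 and 8.44) were above both groups. Its interaction was 0.36 (SE 0.19, limma adjusted p = 0.9999). Neither interaction passed the threshold. This pattern was shown by 2 of the 77 members for PD-0325901, against 3.12% of all genes, and by 1 member for rapamycin, against 3.16% of all genes. It was thus no more common among the members than among all genes.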

How the results depend on the processing

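No member passed the threshold under any of the 9 other settings or with any array left out. Quantile normalization, median centring, genes above the median level (68 members remain in that table), a robust variance trend, the mean of probe sets, the replicate block and fits of only the groups compared kept every members' median on its side of 0, with -0.16 to -0.18 for rapamycin against vehicle and -0.16 to -0.20 for the combination against vehicle. The replicate block gave 0 called members and a median of -0.16 for rapamycin against vehicle and -0.13 for the rapamycin effect. Over all genes, a fit of 2 groups called 22 genes for PD-0325901 and 0 for rapamycin, none of them a member.

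Leaving out each array gave 0 to 9 genes for PD-0325901 against vehicle, 0 to 15 for rapamycin against vehicle, 0 to 9 for the combination against vehicle, 0 to 8 for the PD-0325901 effect and 0 to 2 for the rapamycin effect and the interaction. The members' medians ran from -0.35 to 0.02 for rapamycin against vehicle, -0.16 to 0.01 for PD-0325901 against vehicle, -0.28 to -0.10 for the combination against vehicle, -0.23 to 0.18 for the combination against rapamycin, -0.23 to 0.01 for the combination against PD-0325901, -0.24 to -0.06 for the rapamycin effect, -0.16 to 0.05 for the PD-0325901 effect and -0.14 to 0.19 for the interaction. Members lower in both comparisons without shared arrays numbered 30 to 55 for rapamycin and 14 to 42 for PD-0325901, a setting added after the data were seen.

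With no array left out, members lower at an unadjusted p under 0.05 numbered 7 to 16 for the combination against vehicle. They numbered 1 to 5 for rapamycin against vehicle and 3 to 12 for the rapamycin effect. The highest of each came from quantile normalization. These counts also moved when single arrays were left out, as did those over all genes.

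Of 108 values for single genes, 15 changed sign, all on leaving out an array. For rapamycin against vehicle these were Mrpl3 (-0.01 to 0.63), Mrps36 (-0.31 to 0.64) and Mrpl11 (-0.29 to 0.55). For PD-0325901 against vehicle they were Mrps34 (-0.01 to 0.24) and Mrpl27 (-0.05 to 0.33). For the combination they were Mrpl34 (-0.06 to 0.34) and Mrpl30 (-0.07 to 0.23) against vehicle and Mrpl34 (-0.05 to 0.58) against PD-0325901. For the rapamycin effect they were Mrpl32 (-0.10 to 0.55), Mrpl3 (-0.03 to 0.29), Mrpl36 (-0.18 to 0.44) and Mrpl34 (-0.10 to 0.22), and for the PD-0325901 effect Chchd1 (-0.11 to 0.22), Gadd45gip1 (-0.50 to 0.28) and Ptcd3 (-0.44 to 0.11). The cause was not tested. With 1 array left in a group, that array is assumed to vary like the others.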
